A study of Homo sapiens with 42 samples.

Results

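The interleukin 1 family was followed through 10 genes in head and neck cancer cell lines given cetuximab. The genes are IL1A, IL1B, IL18, IL33 and IL36G, which encode ligands, IL1RN and IL36RN, which encode receptor antagonists, IL1R1 and IL1RAP, which encode the signalling receptor and its accessory chain, and IL1R2, which encodes a decoy receptor. They are 10 of 19775 genes with a probe set annotated to 1 gene symbol. Expression was measured on 42 Affymetrix hgu133plus2.0 arrays, which carry 19 probe sets for them, and each gene is read on its brightest probe set by the mean of all arrays. Values are log2 expression as deposited, and 1 log2 unit is a factor of 2.

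The lines come from head and neck squamous cell carcinoma (HNSCC). The study describes SCC25, SQ20B and SCC61 as HPV-negative, with a PIK3CA mutation in SCC61 and EGFR amplification in SQ20B, and SCC047, SCC090 and 93VU147T as HPV-positive. Each of these 6 lines has 3 arrays of cells given 100 nM cetuximab for 24 hours, and 3 control arrays. Cetuximab is an antibody that blocks ligand binding to EGFR. The control arrays, called untreated here, are labelled control with no agent named. A figure legend of the study names PBS as the control of this comparison. Cetuximab-treated SCC1 carcinoma cells and untreated HaCaT cells, an immortalized keratinocyte line, have 3 arrays each, lie outside the tests and are given as values. Each line stands for 1 tumor grown without stroma or immune cells, and each HPV class for 3 lines. Whether the 3 arrays of a group stem from separate cultures is not given in the sources used here. The p-values therefore reflect array-to-array spread, possibly of technical origin. In cultures read in bulk, fewer cells that express a gene and less mRNA per cell cannot be told apart.

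IL-1alpha and IL-1beta bind the same receptor, IL1R1, which pairs with IL1RAP and signals through MYD88 and IRAK kinases to NF-kB and AP-1. IL-1alpha is active as a precursor and is held ready in keratinocytes, while IL-1beta needs cleavage, classically by caspase-1. The antagonist made from IL1RN occupies IL1R1 without signalling, and IL1R2 binds the ligands but lacks a signalling domain. IL-18 and IL-33 use related receptors, and IL-36gamma, an epithelial cytokine, is opposed by the antagonist made from IL36RN.

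Of these genes 7 lie on chromosome 2 (GRCh38.p14). IL1A (chr2:112773925-112784493), IL1B (chr2:112829751-112836779), IL36G (chr2:112978006-112985658), IL36RN (chr2:113058638-113064744) and IL1RN (chr2:113099360-113134014) form 1 cluster. IL1R2 (chr2:101991960-102028544) and IL1R1 (chr2:102070390-102179874) lie next to each other in another region. IL18 is on chromosome 11, IL1RAP on chromosome 3 and IL33 on chromosome 9. The sequences around the start sites of the 3 genes on which the balance of agonist and antagonist turns are shown. On their brightest probe sets IL1A and IL1B fell and IL1RN rose in the mean of the lines. No other IL1RN probe set was called higher in that mean. Each window, from RefSeq, runs from 250 bases before to 50 bases after an annotated start, 5′ to 3′ on the gene's strand. Capitals mark matches to the AP-1 motif TGANTCA or to the C/EBP motif TTNNGNAA on either strand.
IL1A, chr2:112784351-112784650, minus strand: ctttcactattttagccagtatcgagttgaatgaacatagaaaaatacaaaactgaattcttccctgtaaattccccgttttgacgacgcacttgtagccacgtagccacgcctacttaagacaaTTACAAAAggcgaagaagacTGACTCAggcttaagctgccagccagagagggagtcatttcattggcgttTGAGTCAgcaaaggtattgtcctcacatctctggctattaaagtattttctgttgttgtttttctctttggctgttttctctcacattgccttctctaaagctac
IL1B, chr2:112836730-112837029, minus strand: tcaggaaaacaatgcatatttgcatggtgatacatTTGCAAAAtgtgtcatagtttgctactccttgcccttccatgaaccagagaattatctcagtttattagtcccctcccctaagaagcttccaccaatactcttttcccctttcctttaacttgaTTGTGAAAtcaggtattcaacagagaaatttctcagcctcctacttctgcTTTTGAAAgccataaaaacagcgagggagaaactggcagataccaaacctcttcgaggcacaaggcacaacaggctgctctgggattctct
IL1RN, upstream start, chr2:113117721-113118020, plus strand: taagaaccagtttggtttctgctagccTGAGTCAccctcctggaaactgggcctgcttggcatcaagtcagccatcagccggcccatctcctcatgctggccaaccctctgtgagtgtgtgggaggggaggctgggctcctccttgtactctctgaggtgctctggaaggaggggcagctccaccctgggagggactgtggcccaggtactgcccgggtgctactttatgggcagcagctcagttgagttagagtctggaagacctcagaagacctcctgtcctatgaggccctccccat
IL1RN, downstream start, chr2:113127348-113127647, plus strand: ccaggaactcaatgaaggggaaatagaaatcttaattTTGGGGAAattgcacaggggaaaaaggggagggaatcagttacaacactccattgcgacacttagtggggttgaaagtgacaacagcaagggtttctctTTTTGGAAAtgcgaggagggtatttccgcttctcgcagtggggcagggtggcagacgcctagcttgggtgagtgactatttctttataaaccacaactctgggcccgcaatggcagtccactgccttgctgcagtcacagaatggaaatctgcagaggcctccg

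The IL1A window held 2 AP-1 matches (TGACTCA and TGAGTCA) and 1 C/EBP match (TTACAAAA). The IL1B window held 3 C/EBP matches and no AP-1 match. The upstream IL1RN window held 1 AP-1 match (TGAGTCA), and the downstream one held 3 C/EBP matches, of which 2 overlap, and no AP-1 match. Of 35116 promoter windows of this length, 7.71% held an AP-1 match and 36.8% a C/EBP match. Windows were found for 9 of the 10 genes (18 windows in all), IL18 being the exception. AP-1 was matched in 3 of the 18, of which the 2 IL1A windows overlap and share both matches. The C/EBP motif was matched in 10 of the 18. NF-kB, searched with its consensus motif on either strand, was matched in 1 of the 18, a window of IL36RN, against 5.91% of all windows. Matches describe letters and not binding.

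Before treatment, the lines differed most in IL1A, IL1B and IL18. SCC61 had the highest IL1A and IL1B of the 6 lines, and SCC090 had the lowest IL1A, IL1B and IL18. IL1A read 11.88, 11.91 and 11.98 on the 3 untreated SCC61 arrays and 6.14, 5.54 and 5.72 on those of SCC090. Untreated SCC61 stood 10.4-fold above the mean of the other 5 lines in IL1A (log2 difference 3.37, SE 0.16, adjusted p = 2.04e-18 from limma) and 13.7-fold above it in IL1B (log2 difference 3.78, SE 0.11, adjusted p = 6.55e-24). Untreated SCC090 stood 15.8-fold below the others in IL1A (log2 difference -3.98, SE 0.16, adjusted p = 1.46e-20), and 13.8-fold below in IL1B. IL18 read 4.08, 3.91 and 3.35 on its arrays, under the 5.13 median of all probe sets, and its log2 difference from the others was -4.81 (SE 0.11, adjusted p = 1.42e-27). At that level, near the lower end of what the array reads, the size of the difference is uncertain.

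For IL1A the order of the untreated means was SCC61 (11.92), SQ20B (10.15), 93VU147T (9.38), SCC047 (8.76), SCC25 (8.67) and SCC090 (5.80). Among neighbors in that order only SCC047 and SCC25 did not pass the test of their difference (0.09, SE 0.21, adjusted p = 0.763), and the arrays of SQ20B and 93VU147T overlapped. For IL1B the order was SCC61 (12.21), SCC047 (9.60), 93VU147T (9.18), SQ20B (9.01), SCC25 (8.44) and SCC090 (5.90), and 93VU147T and SQ20B did not pass (0.16, SE 0.14, adjusted p = 0.359). HaCaT cells read 5.34, 5.53 and 5.14 for IL1A, below the mean of every carcinoma line, and 7.70, 7.79 and 7.56 for IL1B. For IL18 SQ20B (9.42) and SCC61 (9.27) did not differ beyond their spread (0.15, SE 0.14, adjusted p = 0.415), and SCC047 (8.84) and SCC25 (8.62) did not pass either (0.22, SE 0.14, adjusted p = 0.202), although their arrays did not overlap. Then followed 93VU147T (6.77) and SCC090 (3.78), each apart from its neighbor by the test.

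The antagonist gene IL1RN had another order. HaCaT cells read 9.70, 9.81 and 9.61, the highest group mean of the 14. The untreated lines followed as SCC047 (9.09), SCC61 (8.68), SCC25 (8.10), SCC090 (7.60), 93VU147T (6.93) and SQ20B (6.68). The last 2 did not pass the test of their difference (0.25, SE 0.17, adjusted p = 0.258), and the arrays of SCC090 and 93VU147T overlapped. Among receptors, IL1R1 split the untreated lines into SCC61 (7.33) and SCC047 (7.27), which did not differ beyond their spread, and the other 4 between 4.59 and 5.46. Untreated IL1RAP ran from 6.90 in SCC047 to 8.24 in SCC61, and the only neighbors that passed were SCC090 (8.17) and SCC25 (7.56). For IL1RAP the order depends on the probe set, since SQ20B stood 0.61 below the others on the one read here and 0.95 above them on the other.

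IL36G was lowest in SCC090 and SQ20B, where it lay under the 5.13 median of all probe sets, near the array's lower end. Its untreated means ran from 6.01 in SCC61, 5.68 in 93VU147T, 5.32 in SCC047 and 5.14 in SCC25 to 4.01 in SCC090 and 3.98 in SQ20B, and the single step that passed the test lay between SCC25 and SCC090 (1.13, SE 0.19, adjusted p = 6.02e-06). IL33, IL36RN and IL1R2 had all 14 group means under the 5.13 median of all probe sets, so their levels are near the lower end of what the array reads. No pair of neighbors passed the test for these 3 genes.

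Each line's untreated mean was also tested against the other 5. Members that passed numbered 5 of 10 in SCC25 (47.9% of all genes passed), 7 in SQ20B (51.8%), 8 in SCC61 (54.3%), 8 in SCC047 (52.5%), 7 in SCC090 (64.7%) and 6 in 93VU147T (53.1%). In SCC61 7 of the 8 were higher, and in SCC090 6 of the 7 were lower. Untreated HPV-negative minus HPV-positive means passed for 5 of 10 (57.5% of all genes). IL18 was 6.25-fold higher in the HPV-negative lines (log2 difference 2.64, SE 0.08), IL1A 4.82-fold and IL1B 3.16-fold higher. This test weighs arrays and not lines, and the classes overlapped, since SCC25 lay below 93VU147T in IL1A (8.67 against 9.38) and below SCC047 in IL18 (8.62 against 8.84). For IL1B both SQ20B (9.01) and SCC25 (8.44) lay below SCC047 (9.60) and 93VU147T (9.18), with SCC61 (12.21) highest and SCC090 (5.90) lowest.

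**Figure D1:**
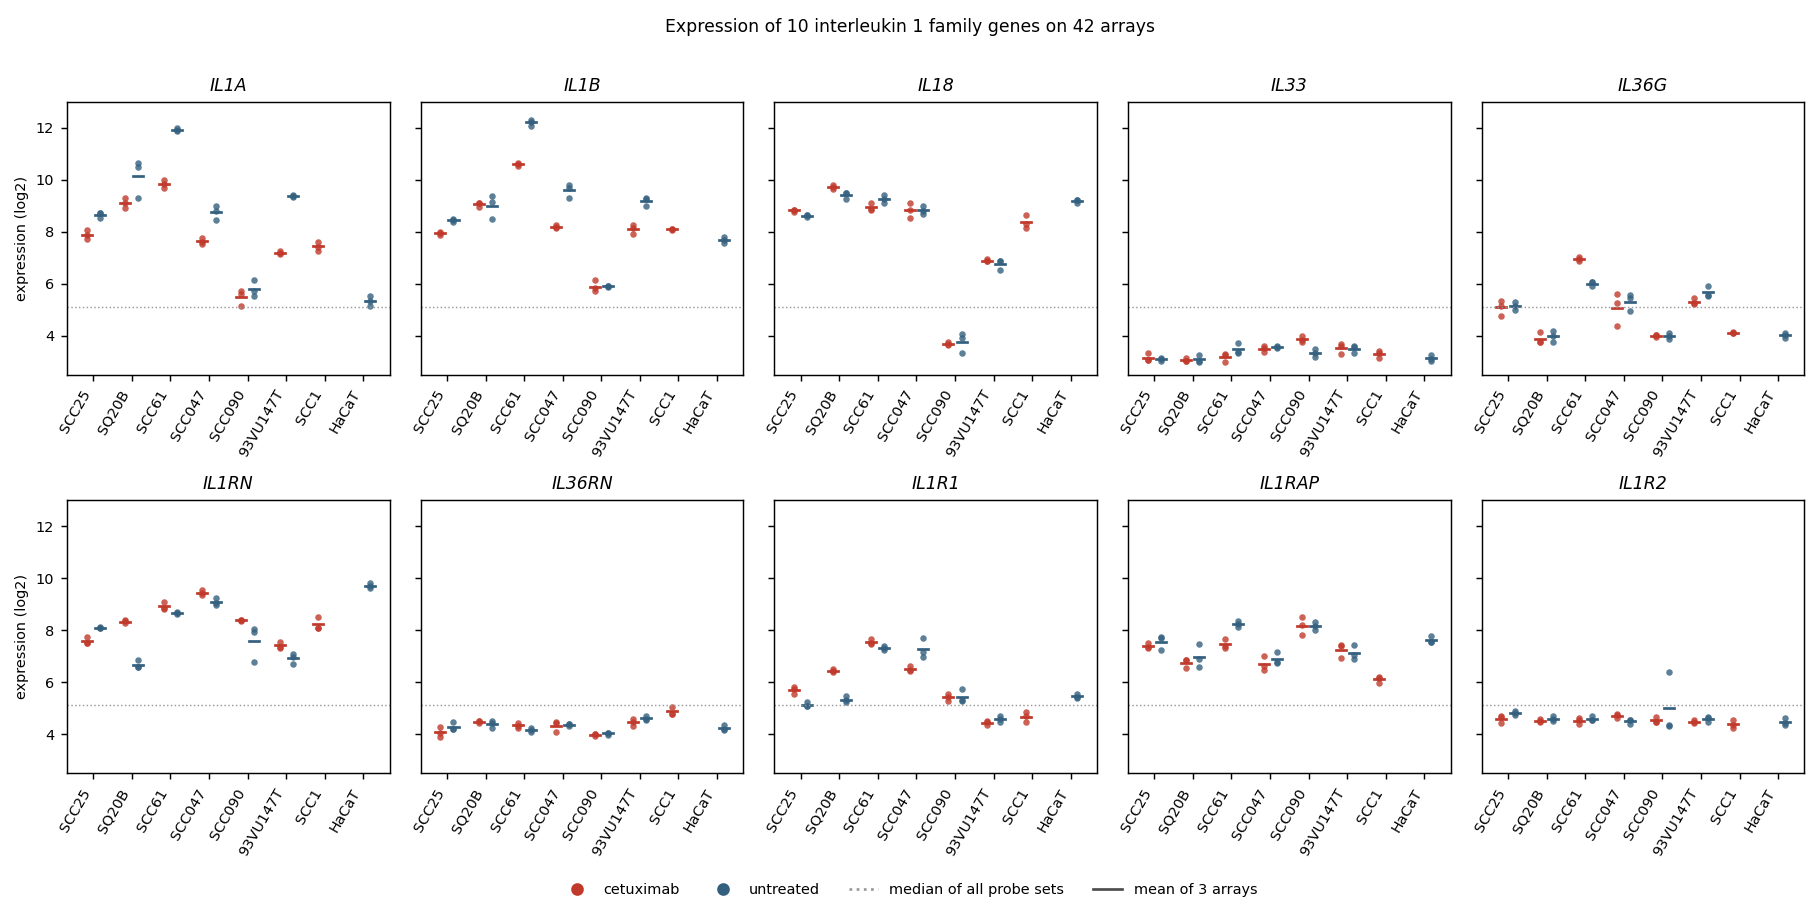
Expression (log2, vertical axis) of the 10 genes in 8 cell lines (horizontal axis); points are single arrays of cetuximab-treated (red, left) and untreated (blue, right) cells, short lines are means of 3 arrays and the dotted line is the median of all probe sets at 5.13. IL1A and IL1B are highest in untreated SCC61 (means 11.92 and 12.21), and IL33, IL36RN and IL1R2 lie below the dotted line in all group means.

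With cetuximab, mRNA of both IL-1 agonists fell. Averaged over the 6 lines, IL1A was 2.38-fold lower (-1.25, SE 0.08, adjusted p = 2.76e-13 from limma, on the log2 scale) and IL1B was 1.68-fold lower (-0.75, SE 0.06, adjusted p = 4.95e-12), while IL1RN was 1.42-fold higher (0.51, SE 0.07, adjusted p = 7.7e-07). In the mean, 5 of the 10 members passed, 2 higher and 3 lower, where 45.9% of all genes passed. The other called members were IL1R1 (0.16, SE 0.05, adjusted p = 0.0111) and IL1RAP (-0.21, SE 0.08, adjusted p = 0.0283), and both calls depend on which lines enter. Without SQ20B IL1R1 stood at -0.03 (adjusted p = 0.677), and without SCC61 IL1RAP stood at -0.09 (adjusted p = 0.43). IL1R1 also fell short without SCC25 (0.08, adjusted p = 0.274) or SCC61 (0.15, adjusted p = 0.0503). The median change of the 10 members was 0.00, beside -0.02 for all genes.

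IL1A fell in 5 of 6 lines. In 93VU147T it read 7.17, 7.14 and 7.25 with cetuximab, against 9.41, 9.36 and 9.37 untreated. In SCC61 it read 9.68, 9.84 and 10 with cetuximab, against 11.88, 11.91 and 11.98 untreated. These were the largest falls, 4.57-fold in 93VU147T (log2 change -2.19, SE 0.21, adjusted p = 7.5e-10) and 4.23-fold in SCC61 (-2.08, SE 0.21, adjusted p = 4.31e-10), with no overlap of arrays. In SCC047 it read 7.63, 7.53 and 7.77 with cetuximab, against 8.47, 8.82 and 8.99 untreated, a 2.17-fold fall (-1.11, adjusted p = 5.41e-05). In SCC25 it read 7.73, 8.08 and 7.89 with cetuximab, against 8.74, 8.74 and 8.52 untreated, a 1.70-fold fall (-0.77, adjusted p = 0.00782). All treated arrays lay below all untreated ones in these 4 lines. The ACTB controls, which compare the 3′ with the 5′ end of a transcript as a measure of RNA integrity, moved with cetuximab without overlap in SCC047 (0.11, SE 0.05) and SCC25 (0.07, SE 0.02), as did the GAPDH controls in SCC047 (0.04, SE 0.02). Their part in the changes of IL1A, IL1B, IL1RN and IL1R1 in these lines was not tested.

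In SQ20B IL1A read 9.32, 8.92 and 9.13 with cetuximab, against 10.63, 9.31 and 10.51 untreated. The second untreated array lay within the treated range, and the fall of 2.04-fold (log2 change -1.03, SE 0.21, adjusted p = 0.000171) became -1.45 without it. With single SQ20B arrays left out in turn, the change ran from -1.45 to -0.79. In SCC090, where the gene was near its lowest, it read 5.74, 5.61 and 5.14 with cetuximab, against 6.14, 5.54 and 5.72 untreated, and did not pass (-0.30, SE 0.21, adjusted p = 0.622). DUSP6, a phosphatase gene induced by ERK, was lower in SCC090 too (-2.13, SE 0.27, adjusted p = 4.62e-05), as was the EGFR ligand gene HBEGF (-0.64, SE 0.17, adjusted p = 0.0469). SCC1 cells with cetuximab read 7.28, 7.62 and 7.43 for IL1A, 8.11, 8.11 and 8.09 for IL1B and 8.09, 8.09 and 8.51 for IL1RN, and their untreated counterpart was not analysed here.

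IL1B fell in 4 lines and moved little in SQ20B and SCC090. In SCC61 it read 10.64, 10.55 and 10.60 with cetuximab, against 12.31, 12.09 and 12.22 untreated, a 3.05-fold fall (log2 change -1.61, SE 0.14, adjusted p = 2.99e-11). In SCC047 it read 8.18, 8.25 and 8.14 with cetuximab, against 9.31, 9.69 and 9.79 untreated, a 2.66-fold fall (-1.41, adjusted p = 1.69e-09). In 93VU147T it read 8.14, 8.28 and 7.92 with cetuximab, against 9.29, 9.26 and 8.98 untreated, a 2.09-fold fall (-1.06, adjusted p = 3.97e-07). The arrays did not overlap in these 3 lines, nor in SCC25, where the fall was smaller (7.90, 7.99 and 7.96 with cetuximab, against 8.49, 8.39 and 8.44 untreated, -0.49, adjusted p = 0.0142). That last call is lost without SCC25 cetuximab replicate 1 (-0.46, adjusted p = 0.0556).

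In SQ20B IL1B read 9.11, 8.97 and 9.13 with cetuximab, inside the untreated range of 9.15, 8.50 and 9.37 (0.06, SE 0.14, adjusted p = 0.784). Without SQ20B untreated replicate 2 the change was -0.19 (adjusted p = 0.251). In SCC090 it read 5.73, 5.83 and 6.14 with cetuximab, against 5.89, 5.91 and 5.91 untreated (0.00, SE 0.14, adjusted p = 0.998). The changes thus differed between lines, by a test that the 6 are equal, for IL1B (adjusted p = 3.24e-09 from limma's F test) and for IL1A (adjusted p = 2.8e-06). A second IL1B probe set gave a mean change of -0.68 (SE 0.06) and the same calls in all 6 lines. A second IL1A probe set, with a mean level of 4.56, gave 0.11 (SE 0.06, adjusted p = 0.187 over all probe sets). It lies under the median of all probe sets in every group, and its changes do not follow those of the brighter one. In 93VU147T it was called higher (0.47, adjusted p = 0.0216 over all probe sets). Leukocytes also make IL-1beta. Of 6 measured leukocyte markers 3 were called lower in the mean change, where 45.9% of all genes passed. A mean below the median of all probe sets was found for 3 of the 6. Their mean level per group ran from 4.73 to 5.39, beside 9.47 to 12.08 for 5 epithelial markers. Among them CD14 had a mean of 6.85 in untreated 93VU147T and 7.87 in SCC1 with cetuximab. The part of leukocytes in the IL1B change was not tested.

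On its brightest probe set IL1RN ran the other way in most lines. SQ20B had the largest rise, with 8.35, 8.27 and 8.38 with cetuximab, against 6.60, 6.87 and 6.58 untreated (3.14-fold, log2 change 1.65, SE 0.17, adjusted p = 5.74e-09). In the same arrays the ACTB integrity controls moved by 0.29 (SE 0.09), and the GAPDH controls by 0.07 (SE 0.03). Neither overlapped between treatments, and their part in this rise or in the IL1R1 rise of the same line was not tested. In 93VU147T IL1RN read 7.36, 7.56 and 7.34 with cetuximab, against 7.11, 6.72 and 6.96 untreated (0.49, adjusted p = 0.0277). That call is lost without 93VU147T cetuximab replicate 2 (0.42, adjusted p = 0.098) or untreated replicate 2 (0.39, adjusted p = 0.135).

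In SCC090 IL1RN read 8.38, 8.37 and 8.40 with cetuximab, against 6.78, 8.06 and 7.94 untreated (0.79, SE 0.17, adjusted p = 0.0135). The low value is untreated replicate 1, an array that stands apart over all genes. The SD of its differences from its partners was 0.31 and 0.297, beside 0.17 between the other two. Without it the change was 0.38 (adjusted p = 0.164), and the call is also lost without cetuximab replicate 2 (0.79, adjusted p = 0.0531) or cetuximab replicate 3 (0.78, adjusted p = 0.0677). In SCC61 IL1RN read 9.09, 8.86 and 8.82 with cetuximab, against 8.72, 8.68 and 8.63 untreated (0.25, adjusted p = 0.264). In SCC047 it read 9.54, 9.45 and 9.34 with cetuximab, against 8.96, 9.24 and 9.07 untreated (0.35, adjusted p = 0.119). Neither passed, although all treated arrays lay above all untreated ones.

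SCC25 went the opposite way, with IL1RN at 7.74, 7.53 and 7.53 with cetuximab, against 8.12, 8.08 and 8.08 untreated (-0.50, SE 0.17, adjusted p = 0.049). That call is lost without any 1 of the 6 SCC25 arrays (adjusted p up to 0.137), with the change between -0.56 and -0.46. The difference of the IL1RN change between lines passed the test (adjusted p = 3.82e-07). The size of the IL1RN rise rests on the probe set read. The gene has 5, and the mean change was 0.51 on the brightest (mean level 8.22). It was 0.05 (SE 0.06) on the next, at a mean level of 6.98, and 0.05 (SE 0.04) on the third, at 6.81, neither of which passed over all probe sets (adjusted p = 0.543 and 0.416). The 2 dim ones, at 4.29 and 3.46, gave -0.12 (adjusted p = 0.0422, a fall) and 0.09 (adjusted p = 0.0846). In SQ20B the brightest gave 1.65 and the others between -0.13 and 0.21. In SCC25 all 5 were below 0, from -0.61 to -0.14, and in SCC090 all 5 were above 0, from 0.11 to 0.79. The one at 6.98 was called lower in SCC25 over all probe sets (-0.61, adjusted p = 0.00281), and the brightest was not (-0.50, adjusted p = 0.0737).

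**Figure D2:**
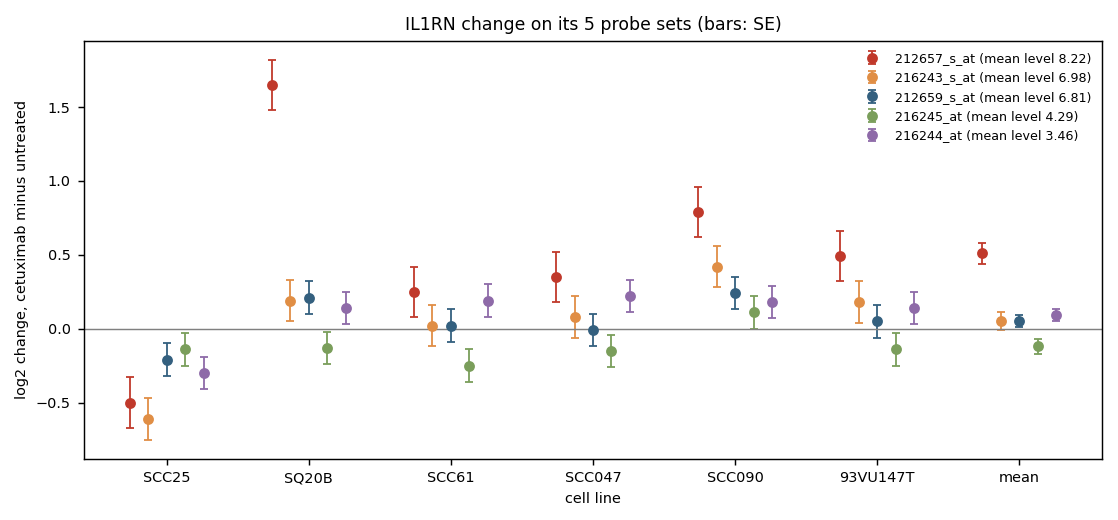
Change of IL1RN with cetuximab (log2, vertical axis) on each of its 5 probe sets in 6 cell lines and in their mean (horizontal axis); points are limma estimates from 3 treated and 3 untreated arrays per line and bars are SE. The brightest probe set stands at 1.65 in SQ20B, where the other 4 lie between -0.13 and 0.21.

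The receptor gene IL1R1 moved in opposite directions. In SQ20B it read 6.52, 6.41 and 6.42 with cetuximab, against 5.32, 5.23 and 5.46 untreated, a 2.16-fold rise (1.11, SE 0.12, adjusted p = 1.57e-08). In SCC25 it read 5.74, 5.55 and 5.81 with cetuximab, against 5.26, 5.09 and 5.08 untreated, a 1.47-fold rise (0.55, adjusted p = 0.00158). In SCC047 it read 6.42, 6.63 and 6.48 with cetuximab, against 7.69, 7.15 and 6.97 untreated, a 1.69-fold fall (-0.76, adjusted p = 9.71e-06). The arrays did not overlap in these 3 lines. SCC61 (0.22), SCC090 (-0.04) and 93VU147T (-0.14) did not pass. The difference between lines passed (adjusted p = 2.56e-09). A dimmer IL1R1 probe set (mean level 4.28) gave 0.17 in SQ20B and 0.03 in SCC25, neither called, and -0.36 in SCC047 (adjusted p = 0.0251 over all probe sets).

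IL1RAP, the accessory chain, fell in SCC61 alone among the single-line tests, with 7.31, 7.68 and 7.41 under cetuximab against 8.23, 8.13 and 8.36 untreated (1.70-fold, -0.77, SE 0.19, adjusted p = 0.00105). The test of a difference between lines did not pass (adjusted p = 0.0691). The other IL1RAP probe set (mean level 6.87) fell by 1.74 in SCC61 and by 0.56 in SCC047 (adjusted p = 1.99e-08 and 0.0398 over all probe sets), with a mean change of -0.55 (SE 0.08). The decoy receptor gene IL1R2 passed in no line on its brightest probe set. On the other it changed by -1.31 in SCC090, which did not pass over all probe sets (adjusted p = 0.064). With that probe set in the gene table it was called lower (adjusted p = 0.0445). On the brightest probe set it read 6.38, 4.33 and 4.37 in untreated SCC090. The high value was the array that also had the low IL1RN value, and all other 41 arrays lay at 4.91 or below.

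IL36G rose in SCC61, where it read 7.04, 6.95 and 6.90 with cetuximab, against 6.06, 6.06 and 5.91 untreated (1.94-fold, 0.96, SE 0.19, adjusted p = 0.000109). The direction was thus opposite to that of IL1A and IL1B in the same arrays. No other line passed for IL36G, with changes from -0.36 in 93VU147T to 0.00 in SCC090, and the difference between lines passed (adjusted p = 0.00142). In SCC090 and SQ20B IL36G lay near the lower end of the scale with and without cetuximab. IL18 fell in SCC61, where it read 8.84, 9.11 and 8.87 with cetuximab, against 9.11, 9.43 and 9.28 untreated (-0.33, SE 0.14, adjusted p = 0.0468), with touching arrays. That call is lost without 4 of the 6 SCC61 arrays, cetuximab replicate 1 or 3 and untreated replicate 2 or 3 (adjusted p up to 0.197). IL33 passed as higher in SCC090 (3.78, 3.86 and 3.98 with cetuximab, against 3.19, 3.34 and 3.49 untreated, 0.53, adjusted p = 0.00848) and as lower in SCC61 (-0.29, adjusted p = 0.0324), at levels under every array's median. The SCC090 call is lost without untreated replicate 1 (0.46, adjusted p = 0.136) or cetuximab replicate 3 (0.48, adjusted p = 0.0732). The SCC61 call is lost without cetuximab replicate 1 or untreated replicate 3 (adjusted p up to 0.258). IL36RN passed in no line.

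Per line, members that passed numbered 4 of 10 in SCC25 (16.0% of all genes), 3 in SQ20B (33.3%), 6 in SCC61 (44.1%), 3 in SCC047 (36.2%), 2 in SCC090 (1.40%) and 3 in 93VU147T (34.6%). Treated arrays all lay on one side of the untreated ones for 6 members in SCC25 (35.5% of all genes), 3 in SQ20B (46.3%), 8 in SCC61 (53.9%), 5 in SCC047 (43.8%), 2 in SCC090 (15.6%) and 4 in 93VU147T (41.8%). The changes differed between lines for 6 members, where 59.0% of all genes passed this test. The HPV-negative minus HPV-positive difference of the changes passed for 3 members (37.2% of all genes), IL1R1 (0.94, SE 0.10, adjusted p = 6.64e-09), IL36G (0.47, SE 0.16, adjusted p = 0.0178) and IL33 (-0.25, SE 0.09, adjusted p = 0.0253). On its other probe set the IL1R1 difference was 0.13 (adjusted p = 0.324), and the IL33 call is lost without SCC61 untreated replicate 3 (-0.21, adjusted p = 0.0503). It did not pass for IL1A (-0.09, SE 0.17, adjusted p = 0.721), IL1B (0.15, SE 0.11, adjusted p = 0.343) or IL1RN (-0.08, SE 0.14, adjusted p = 0.727).

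**Figure D3:**
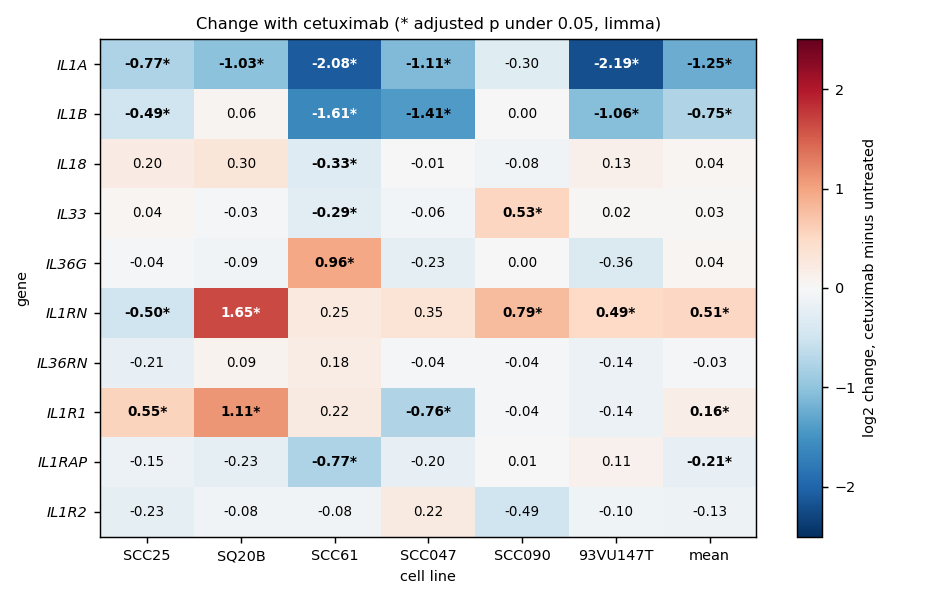
Change with cetuximab (log2, cetuximab minus untreated) of the 10 genes (rows) in 6 cell lines and their mean (columns), with blue for lower, red for higher and an asterisk for an adjusted p under 0.05 from limma. IL1A is marked in 5 lines and IL1B in 4, all lower, with -2.19 in 93VU147T the largest fall.

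The balance of agonist and antagonist mRNA was read as the difference of their log2 levels on each array. Probe sets differ in brightness, so only its change, or its distance from the mean of the 6 untreated lines, is given, and it carries no test. The IL1A minus IL1RN difference changed by -1.75 (SE 0.14) in the mean of the 6 lines, and the IL1B minus IL1RN difference by -1.26 (SE 0.10). On the brightest probe sets all treated arrays lay below all untreated ones for both differences in 5 of 6 lines. The exception was SCC25, where IL1RN fell along with both agonists (-0.27, SE 0.17, for IL1A minus IL1RN and 0.01, SE 0.09, for IL1B minus IL1RN). In SQ20B IL1B minus IL1RN changed by -1.59 (SE 0.36), beside an IL1B change of 0.06. The other IL1RN probe sets changed there between -0.13 and 0.21, so a shift of that size was seen on the brightest alone. In SCC090 IL1B changed by 0.00, so its IL1B minus IL1RN shift was that of IL1RN.

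On the brightest IL1RN probe set the largest shifts of IL1A minus IL1RN were -2.68 in SQ20B (SE 0.52), -2.68 in 93VU147T (SE 0.14) and -2.33 in SCC61 (SE 0.18). On that probe set the IL1RN rise was the larger share of the SQ20B shift, and the IL1A fall that of the shifts in 93VU147T and SCC61. On the other 4 IL1RN probe sets the SQ20B shift was between -1.24 and -0.90, beside an IL1A change of -1.03, so its place among the largest holds on the brightest alone. SCC047 shifted by -1.47 (SE 0.17). SCC090 shifted by -1.09 (SE 0.61), and by -0.51 without untreated replicate 1, and its IL1B minus IL1RN shift was -0.79 (SE 0.42), or -0.39 without that array. The SQ20B shift of IL1A minus IL1RN was -3.19 without untreated replicate 2, and ran from -3.19 to -2.4 with single SQ20B arrays left out in turn. With IL1RN read on either of its next 2 brightest probe sets the mean shift of IL1A minus IL1RN was -1.30 on each and that of IL1B minus IL1RN was -0.80 on each.

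Among untreated cells, the IL1A minus IL1RN difference lay above the mean of the lines in SQ20B (2.20), SCC61 (1.98) and 93VU147T (1.18), and below it in SCC25 (-0.70), SCC047 (-1.60) and SCC090 (-3.06). HaCaT cells lay furthest toward the antagonist, at -5.64, and their arrays form a scan batch of their own, so line and batch cannot be told apart. With cetuximab the 6 lines lay between -4.15 in SCC090 and -0.35 in SCC61, and SCC1 cells at -2.05. Against the decoy receptor, IL1A minus IL1R2 changed by -1.12 (SE 0.13) and IL1B minus IL1R2 by -0.63 (SE 0.13) in the mean, with IL1R2 near the lower end of the scale. IL1R1 minus IL1R2 changed by 1.19 in SQ20B (SE 0.12), 0.79 in SCC25 (SE 0.10) and -0.98 in SCC047 (SE 0.19). IL36G minus IL36RN changed by 0.78 in SCC61 (SE 0.10) and by 0.07 in the mean (SE 0.09).

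**Figure D4:**
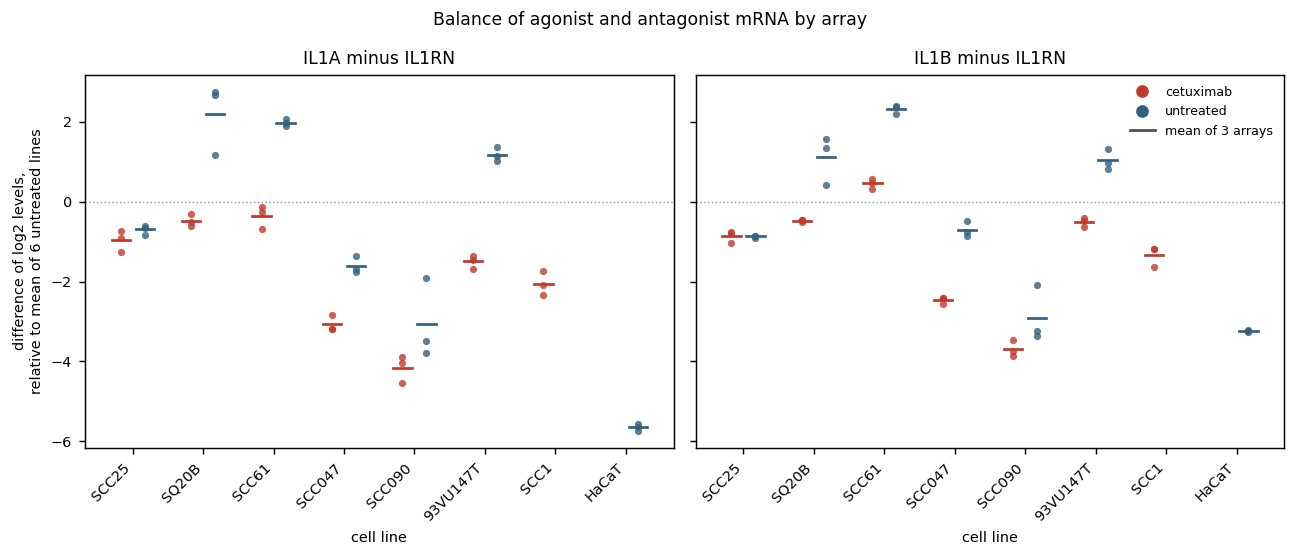
Difference of log2 levels of agonist and antagonist mRNA (vertical axis, relative to the mean of the 6 untreated lines) in 8 cell lines (horizontal axis); points are single arrays, cetuximab in red on the left and untreated in blue on the right, and short lines are means of 3 arrays. Each gene is read on its brightest probe set. Treated arrays lie below untreated ones in 5 of 6 lines in both panels, with SCC25 the exception and HaCaT lowest at -5.64 on the left.

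Genes known to respond to IL-1 did not move as a block. Of 15 measured, 2 were higher and 6 lower in the mean of the lines, where 45.9% of all genes passed (median change -0.04, beside -0.02 for all genes). PTGS2, the inducible cyclooxygenase, fell by 0.79, the neutrophil chemokine gene CXCL8 by 0.70, TNFAIP3, a brake on NF-kB, by 0.48 and IL6 by 0.44. In 93VU147T 12 of the 15 were lower and none higher (34.6% of all genes passed, median -0.94, CXCL8 at -1.97), and in SCC047 9 were lower and 1 higher (36.2% of all genes, PTGS2 at -1.34). SCC61, which had a large fall of IL1A and IL1B, had 11 of the 15 higher and 1 lower (44.1% of all genes passed, median 0.57, beside -0.03 for all genes). There the chemokine gene CXCL1 rose by 1.69, while ICAM1, an adhesion molecule, fell by 0.46. SCC25 had 1 higher and 5 lower (16.0% of all genes passed), with CXCL8 at -1.97 and SOD2, a mitochondrial superoxide dismutase, at 0.63. SQ20B had 4 higher and 5 lower (33.3% of all genes), with LCN2, an iron-sequestering protein of epithelia, at 1.80 and IL6 at -0.89. SCC090, where neither agonist passed, had none called, near the 1.40% of all genes that passed there. The HPV-negative minus HPV-positive difference of the change passed for 11 of the 15, all higher (37.2% of all genes passed, median 0.67, beside 0.01 for all genes). This test weighs arrays and not lines. The classes overlapped, since the median change of the list was -0.04 in HPV-negative SCC25 and 0.02 in HPV-positive SCC090.

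**Figure D5:**
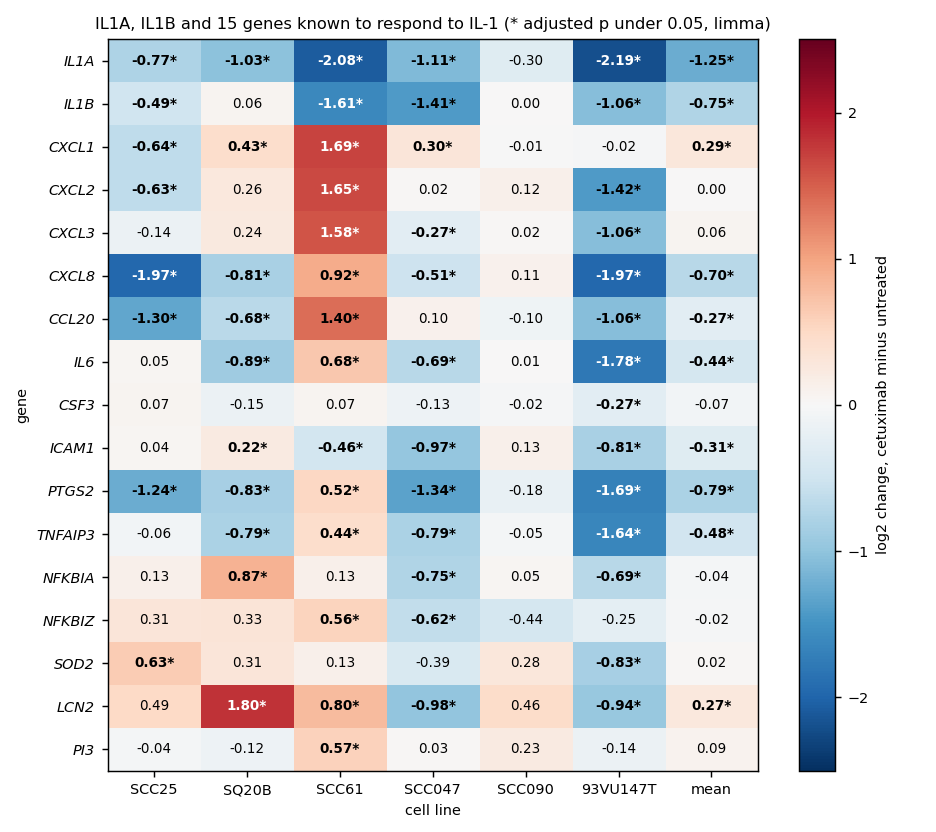
Change with cetuximab (log2, cetuximab minus untreated) of IL1A, IL1B and 15 genes known to respond to IL-1 (rows) in 6 cell lines and their mean (columns), with an asterisk for an adjusted p under 0.05 from limma. The SCC61 column holds 11 marked rises beside IL1A at -2.08, and the 93VU147T column holds 12 marked falls among the 15.

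The genes that carry the signal were mixed. Of 15 measured genes of the chain from receptor to NF-kB, 6 were higher and 2 lower in the mean, near the 45.9% of all genes that passed (median 0.02, beside -0.02 for all genes). IRAK2, a kinase of the receptor complex, fell by 0.68, with -1.30 in SCC61, -1.20 in 93VU147T and -1.14 in SCC047. IKBKB, the IkappaB kinase beta gene, rose by 0.38 (1.44 in SCC61), the adaptor gene MYD88 by 0.37 and CHUK, the alpha kinase gene, by 0.18. Of 14 genes for processing and release, 9 were higher and 2 lower, where 45.9% of all genes passed (median 0.15, beside -0.02 for all genes). AIM2, a DNA sensor that forms an inflammasome, rose by 0.70 (1.83 in SCC61), CASP1, the caspase-1 gene, by 0.32, CAPN1, a calpain subunit gene, by 0.26 and the caspase gene CASP8 by 0.22. The CASP8 rise was that of SCC61 (1.62), and the other 5 lines lay between -0.17 and 0.03, none called. Of 10 other ligands and receptors of the family none was higher and 2 were lower, where 45.9% of all genes passed. These were SIGIRR, an inhibitory receptor, lower by 0.36, and IL1RL1, the IL-33 receptor, lower by 0.14. IL1RL1 was called in SQ20B alone (-0.88), and the other 5 lines lay between -0.13 and 0.28. In SCC090 no gene of these 3 lists was called, where 1.40% of all genes passed.

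Likeness of pattern was measured as Pearson's r over the 14 group means, among 10975 genes that span at least 1 log2 unit. The points share lines and arrays, and r is a description. For IL1A the most alike were SYTL4 (0.931), ERRFI1 (0.918), DGKD (0.916), SSH1 (0.91) and IL1B (0.91). For IL1B they were OTULIN (0.958), TRIO (0.943), ITPRIP (0.936), HDAC9 (0.933) and KCTD10 (0.932). IL1RN had NMU (0.929) and then PPIL3 (0.822), DYNC2LI1 (0.82), WDR11 (0.817) and TBX19 (0.817). IL36G had S100A9 (0.931), PDZK1IP1 (0.912), HSD17B2 (0.90), SLCO4A1 (0.893) and KYNU (0.892). Between members, IL1A had r = -0.18 with IL1RN and 0.47 with IL1R1 over the same groups.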

How the data were processed

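The deposited values are log2 expression per probe set from 42 Affymetrix hgu133plus2.0 arrays, which the authors made with fRMA 1.16.0 (background correction, normalization to a frozen reference and summary of probes). The methods name pSVA as a further step, and no source used here says if it was applied before deposit. Values ran from 2.62 to 14.5, array medians from 5.09 to 5.16, and every column was used as deposited. Arrays fall into 3 scan batches of 35, 4 and 3, and SQ20B untreated replicate 3 lies outside the batch of 35. SCC1 and HaCaT arrays make up the rest, so line and batch cannot be told apart for them. Of 54675 probe sets, 41091 carry 1 gene symbol, 1801 several and 11721 none in the annotation used, and 62 are controls. Gene identifiers matched for 41037.

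In limma 3.58.1 (R 4.3.3) 12 group means were fitted to 36 arrays (residual degrees of freedom 24, prior 6.86), with Benjamini-Hochberg adjustment of p over 19775 genes in each contrast. A gene passed at an adjusted p under 0.05. The number of arrays limits precision.

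Members and lists were chosen with earlier results of these data known. All 10 members are named, with the 4 called genes of each list that changed most in the mean, the list genes of largest rise or fall in lines described, and the 5 genes most like IL1A, IL1B, IL1RN and IL36G. Alternatives were other probe sets, their mean, a choice by ratio of deviations, centred medians, quantile normalization, a filter on dim genes, all 42 arrays, a replicate block, scan batch, moderation with trend, lines fitted alone, and each array or line left out. Sequences and coordinates are RefSeq's (GRCh38.p14).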

Additional observations from a re-analysis of the deposited data

Results flagged for a closer look

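Cetuximab changes that differed between the 6 lines by limma's F test are given as the largest minus the smallest line change. The spread was 1.89 log2 units for IL1A (adjusted p = 2.8e-06), 1.67 for IL1B (adjusted p = 3.24e-09), 2.15 for IL1RN (adjusted p = 3.82e-07), 1.87 for IL1R1 (adjusted p = 2.56e-09), 1.32 for IL36G (adjusted p = 0.00142) and 0.82 for IL33 (adjusted p = 0.00124). For IL1A and IL1B the smaller changes were those of SCC090, the line with the lowest levels of both, and for IL1B also that of SQ20B. For IL1RN SCC25 lay at one end and SQ20B at the other. The HPV-negative minus HPV-positive difference of the change was 0.94 for IL1R1 (adjusted p = 6.64e-09), 0.47 for IL36G (adjusted p = 0.0178) and -0.25 for IL33 (adjusted p = 0.0253). The IL36G difference came with a rise in SCC61 alone, and the IL33 difference with levels under every array's median.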

How the results depend on the processing

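With 3 arrays per group, and dim members near the lower end of the scale, small changes are the least certain. IL1A and IL1B in the mean passed as lower under all alternatives except the dim IL1A probe set (0.11, adjusted p = 0.162). That probe set was called higher in 93VU147T (0.47, adjusted p = 0.0159). It also gave 0.25 in SCC047, 0.07 in SCC25 and 0.26 for the untreated SCC090 level. With it IL1A minus IL1RN changed by -0.40. The IL1A call in SCC25 is lost with the mean of all probe sets (-0.35, adjusted p = 0.107).

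On the IL1RN probe sets of brightness rank 2 to 5 the mean change was 0.05, 0.05, -0.12 and 0.09, and on rank 4 it was -0.13 in SQ20B and -0.14 in 93VU147T. Untreated IL1RN turned sign to 0.12 in 93VU147T and 0.04 in SQ20B on rank 4, and to -0.15 in SCC61 on rank 5. IL1A minus IL1RN changed by -1.30, -1.30 and -1.13 on ranks 2 to 4, and IL1B minus IL1RN by -0.80, -0.80, -0.63 and -0.85 on ranks 2 to 5. With the mean of all probe sets these were -0.69 and -0.83, and IL1R1 changed by 0.02 in the mean. On its other probe set IL1R1 changed by -0.11 in the mean and -0.34 in SCC61. IL1R2 on its other probe set, which the ratio of deviations also picks, fell by 0.36 (adjusted p = 0.0347 and 0.0355). IL1RAP on its other probe set changed by -0.53 in 93VU147T (also by the ratio of deviations), and its untreated difference turned to -1.69 in SCC090 and 0.95 in SQ20B, and to -0.44 and 0.17 with the mean of all probe sets.

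Leaving out a line, IL1R1 in the mean was 0.08 without SCC25, 0.15 without SCC61 and -0.03 without SQ20B, IL1RAP was -0.09 without SCC61, and the members called in the mean were 3 without SCC61. Leaving out single arrays, IL1RAP in the mean ran from -0.24 to -0.17, and lost its call without 93VU147T cetuximab replicate 2, 93VU147T untreated replicate 1, SCC047 untreated replicate 1, SCC090 cetuximab replicate 3 or SQ20B untreated replicate 2. The members called in SCC090 ran from 0 to 2, and were 0 with each line fitted alone and 1 with the filter on dim genes or the mean of all probe sets. Untreated IL1R2 ran from -0.28 to 0.75 in SCC090 and from -0.14 to 0.20 for HPV-negative minus HPV-positive, both with their sign turned without SCC090 untreated replicate 1. The filter on dim genes left IL33, IL36RN and IL1R2 untested.

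Whether replicate numbers pair the samples is open (18 same-numbered pairs, r from -0.15 to 0.32, 7 over 0.1), since differently numbered pairs were not compared. With the replicate number within line as a block 2 of 89 results crossed the threshold, IL1RAP for HPV-negative minus HPV-positive changes (-0.36, adjusted p = 0.034) and IL36G in 93VU147T (-0.36, adjusted p = 0.0437), and 8 members differed between lines. IL1RAP also passed that HPV contrast after quantile normalization (-0.41) and with scan batch as a covariate (-0.42).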
